A study of Mus musculus with 22 samples.

Results

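The cytosolic ribosomal protein genes were followed across 6 groups of mouse intestinal tissue. They were chosen by name: every gene of the deposited count table whose symbol is Rpl or Rps followed by a number, with an optional a, x or l at the end, together with Rplp0, Rplp1, Rplp2 and Rpsa, and with at least 10 counts in at least 3 libraries. Of 46603 genes in the table, 82 had such a symbol and 79 met the count minimum, 47 of the large and 32 of the small ribosomal subunit. All 79 had at least 10 counts in each of the 22 libraries, so the minimum removed no gene for being low in 1 group alone. The 3 genes outside it were Rpl10l with 0 counts in every library, Rpl3l with at most 4 and Rpl39l with at most 6. Of the members nearest to the minimum, Rps4l, which had no coding sequence in the annotation used, averaged 561 counts, Rpl27 1533 and Rps28 1975. The rule does not take in the ribosomal protein genes Rps3a1 and Fau or the paralogs Rpl22l1 and Rpl7l1, which are described separately.

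Male wild-type C57BL/6 mice, 7 weeks old at the start, ate an irradiated diet for 7 weeks, with fibre at 8% of its weight and with fat at 35%, protein at 20% and carbohydrate at 45% of its calories. The 6 groups were pectin with PFOS (written Pectin + PFOS, n = 4), pectin alone (Pectin, n = 4), inulin with PFOS (Inulin + PFOS, n = 3), inulin alone (Inulin, n = 3), cellulose with PFOS (PFOS, n = 4) and cellulose alone (Control, n = 4). PFOS, perfluorooctane sulfonate, is a persistent fluorinated surfactant, and exposed animals drank it in a daily dose of 3 µg per kg. Pectin and inulin are soluble fibres that gut bacteria ferment, and cellulose is a poorly fermented one. The labels call the libraries biological replicates but do not tie them to single animals, so the p-values measure the spread between these libraries. The gut segment is not given in the labels. Markers of absorptive enterocytes summed to 16250 to 101200 CPM (counts per 1000000 after TMM scaling, the trimmed-mean library scaling of edgeR) over 12 genes, and those of Paneth cells to 1075 to 11030 CPM over 11 genes, with no marker at 0 throughout a group.

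Ribosomal proteins wrap the ribosomal RNAs of the large and small subunits, and cells need them in about equal numbers. Many vertebrate transcripts that encode them start with a run of C and T bases, the terminal oligopyrimidine or TOP motif, through which the growth kinase mTORC1 and the RNA-binding protein LARP1 control how well they are translated. In the intestine the dividing crypt cells that renew the lining make new ribosomes, and the secretory Paneth and plasma cells are rich in them. Several members also act outside the ribosome, such as Rpl5 and Rpl11, which bind the p53 inhibitor Mdm2 when ribosome assembly fails.

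The starts of some members are shown because the TOP motif lies there. Each line gives 30 bases around a transcription start of RefSeq on build GRCm38.p6, from 10 bases before to 20 bases after it, and capitals mark the runs CTTTC together with CTTTT, and likewise CTCTT together with CCTTT, with their overlaps. The first 5 hold such a run and the last 3 hold none. Both sets include members that were lower in Pectin + PFOS than in Pectin, such as Rpl13a and Rpl35 in the first and Rpl5 and Rpl39 in the last. A run was counted anywhere in the window, also before the annotated start, and the starts used in this tissue were not tested. A window without a run is therefore not shown to lack a TOP motif, nor one with a run to have it.
Rpl28, chr7:4792955-4792984, plus strand: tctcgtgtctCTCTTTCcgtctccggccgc
Rpl35, chr2:39005112-39005141, minus strand: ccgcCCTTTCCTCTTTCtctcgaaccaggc
Rpl13a, chr7:45128726-45128755, minus strand: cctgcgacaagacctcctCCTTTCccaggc
Rps27, chr3:90213629-90213658, minus strand: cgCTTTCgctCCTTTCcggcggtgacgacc
Rps6, chr4:86857348-86857377, minus strand: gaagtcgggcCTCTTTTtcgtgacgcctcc
Rpl5, chr5:107900518-107900547, plus strand: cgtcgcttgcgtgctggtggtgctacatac
Rpl39, chrX:37085203-37085232, minus strand: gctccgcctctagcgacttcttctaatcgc
Rpl41, chr10:128549149-128549178, minus strand: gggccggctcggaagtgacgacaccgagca
Of the 79 members, 58 had at least 1 RefSeq start window, and in 20 of these (34.5%) a window held a run, against 12.7% of all 27025 genes with a window. The reverse complement of the same runs stood in 5.17% of the members and 12.5% of all genes. In the longer window of 300 bases, 250 before to 50 after the start and read on both strands, CCGGAAG, the core bound by ETS factors, was found in 41.4% of the members and 9.93% of all genes. GGGCGG, the GC box, was found in 62.1% against 38.2%, CACGTG, the E box bound by Myc, in 10.3% against 8.09%, and TATAAA in 10.3% against 15.7%.

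The members were among the most abundant messages of the tissue. Over the 22 libraries they held 1.84% to 5.21% of all counts (median 2.82%) and 5.27% to 12.9% of all TPM (transcripts per 1000000, a level scaled by gene length). Mean levels per length ran over about 2 orders of magnitude, from Rps4l at 46.8 TPM to Rps14 at 4071 TPM, a protein of the small subunit's platform. The next highest were Rpl13a, a large-subunit protein much used as a reference gene, at 3484 TPM, Rps27 at 3241 TPM, Rpl41, the shortest ribosomal protein, at 3134 TPM, and the stalk protein Rplp1 at 2356 TPM. The next lowest above Rps4l were Rpl5 at 114 TPM, Rpl27 at 231 TPM, Rpl27a at 266 TPM and Rpl37 at 297 TPM. Ribosomal proteins have many processed pseudogenes, and 72 of the 79 members had a fractional count in at least 1 library. How the authors shared reads between such copies is not stated, so the level of a single member is uncertain.

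In each library the members took a similar course. The share of counts in the 79 members was 1.86, 2.26, 2.62 and 2.56% in Pectin + PFOS, against 3.78, 3.83, 2.86 and 5.21% in Pectin. It was 2.94, 2.55 and 4.1% in Inulin + PFOS, against 1.84, 1.84 and 2.86% in Inulin. It was 2.51, 2.35, 2.8 and 3.1% in PFOS, against 2.83, 2.38, 5.01 and 3.04% in Control. The Pectin + PFOS libraries all lay below the Pectin libraries, the ranges with and without PFOS overlapped on inulin and on cellulose, and Control replicate 3 stood well above the other Control libraries. In bulk tissue, fewer cells of a type and less RNA per cell cannot be told apart. The share of mitochondrially encoded genes was 2.85, 3.1, 3.51 and 3.46% in Pectin + PFOS and 6.43, 7.36, 3.88 and 5.86% in Pectin, and it reached 14.9% in Control replicate 4. Genes with at least 10 counts numbered 12919, 13835, 14085 and 14384 in Pectin + PFOS and 14440, 14682, 14387 and 14926 in Pectin. The lowest TMM factor of all libraries, 0.749, was that of Pectin + PFOS replicate 1. The part of the mitochondrial share, of the number of genes seen and of the scaling in the members' differences was not tested.

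**Figure D1:**
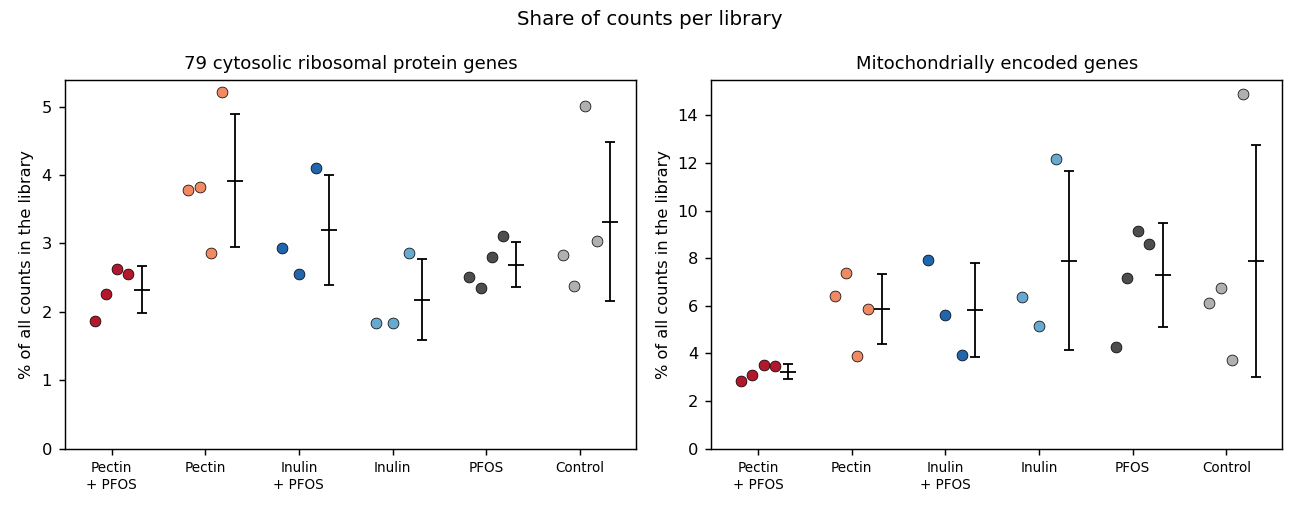
Percentage of each library's counts in the 79 cytosolic ribosomal protein genes (left) and in mitochondrially encoded genes (right), with points for libraries and bars for the mean ± SD of each group. The 4 Pectin + PFOS libraries lie between 1.86% and 2.62% for the ribosomal protein genes and the 4 Pectin libraries between 2.86% and 5.21%.

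Levels of the members followed each other closely. The correlation of a member's log2 CPM with the mean of the other members over the 22 libraries had a median of 0.88 and was above 0.8 for 57 of the 79. Libraries share their scaling and tissue composition, so this is a description, and counts of members with 1 sign are not independent observations. The 6 members under 0.65 were Rps4l at 0.27, Rps2, Rps27l and Rpl28 at 0.59 each, and Rps14 and Rpl39 at 0.63 each. Rpl39, whose protein lines the tunnel through which new chains leave the ribosome, spanned a 8.98-fold range of CPM, which was 5.29-fold without Control replicate 4, against a median of 3.00-fold over the members. Of the 79 members, 55 had their highest group mean in Pectin, 19 in Inulin + PFOS, 3 in Control and 2 in Pectin + PFOS. The lowest mean fell in Inulin for 38, in PFOS for 27 and in Pectin + PFOS for 14.

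**Figure D2:**
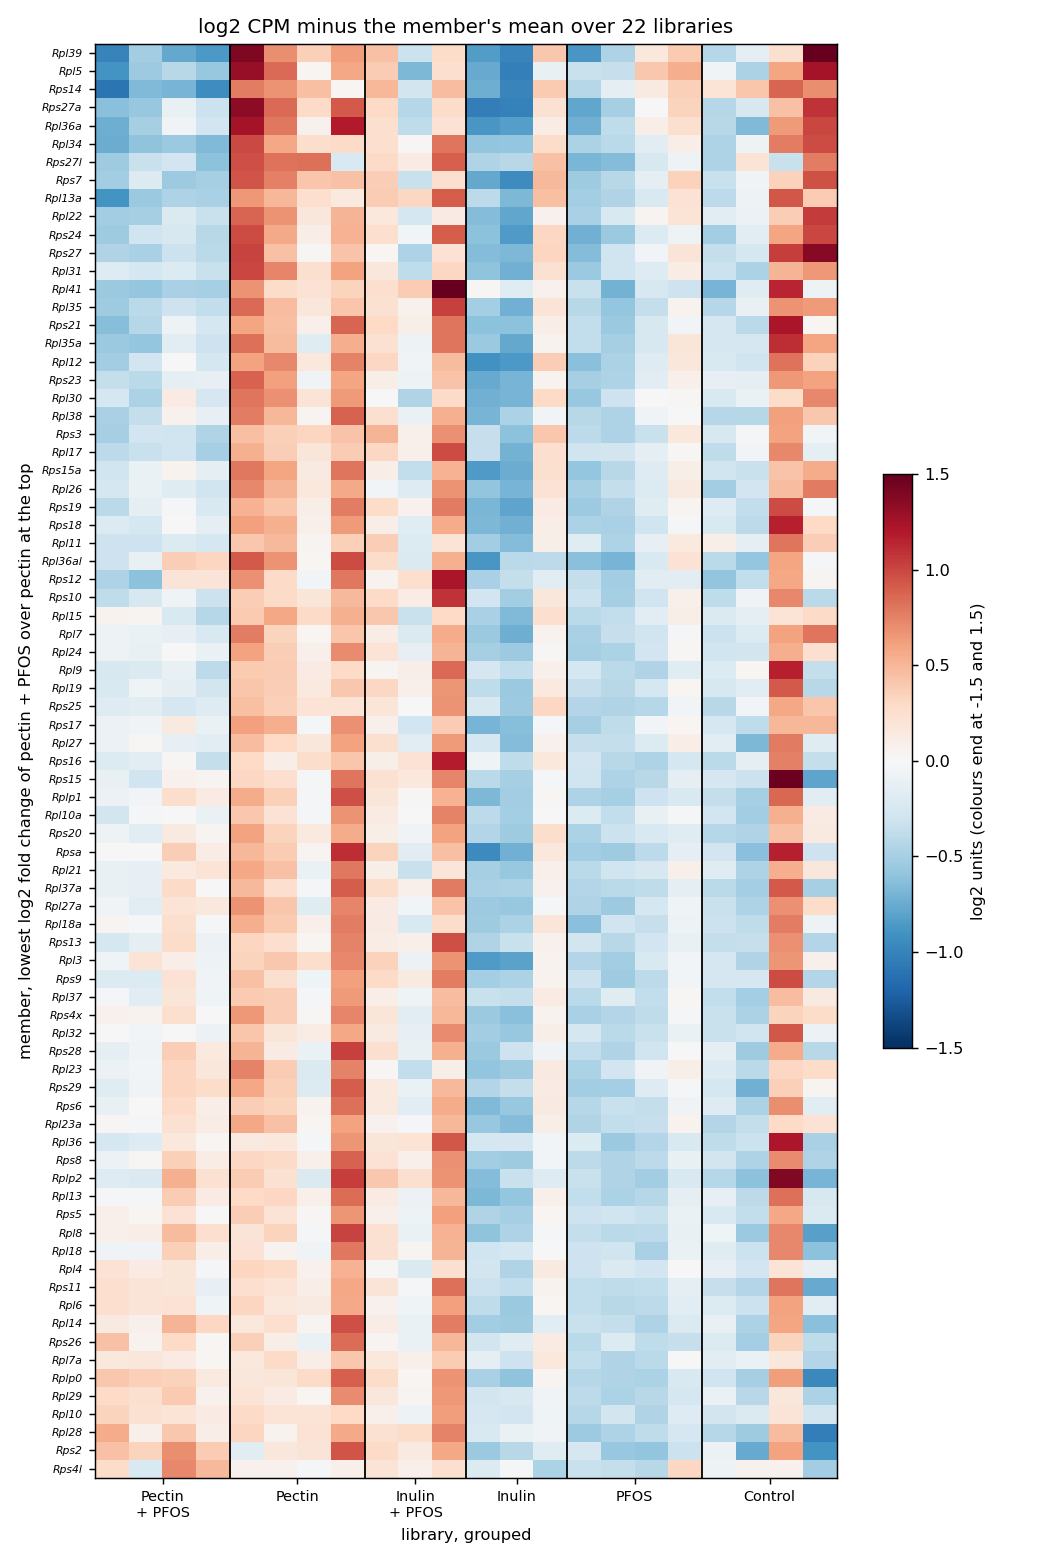
Level of each member in each library, as log2 CPM minus the member's mean over the 22 libraries, with columns grouped from Pectin + PFOS at the left to Control at the right and rows ordered by log2 fold change of Pectin + PFOS over Pectin, lowest at the top. Rpl39 (-1.60) heads the rows, Rps4l (0.32) ends them, and Control replicate 3 is above the member's mean in most rows.

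Differences between groups were tested with edgeR's quasi-likelihood test on rounded expected counts of all 15763 genes that passed its filter, and a member was called at a Benjamini-Hochberg adjusted p under 0.05. Fold changes are on the log2 scale with their standard error (SE). Ribosomal protein transcripts were lower with PFOS on the pectin diet: 23 of the 79 members fell in Pectin + PFOS relative to Pectin and none rose, 15 of the 47 large-subunit and 8 of the 32 small-subunit members. Over all genes tested, 9.43% were called lower and 11.4% higher. The median log2 fold change was -0.44 over the members and -0.06 over all genes. It was -0.44 over the large-subunit and -0.47 over the small-subunit members. The ratio of summed large- to small-subunit counts was 1.348 to 1.459 in Pectin + PFOS and 1.28 to 1.308 in Pectin, without overlap. High ratios were not particular to PFOS on pectin, as the ratio was 1.275 to 1.422 in Inulin. The small-subunit sum includes Rps14, which had the highest mean count of the members (27337) and was lower in Pectin + PFOS. Its part in the ratio was not tested. The CPM values of 38 members did not overlap between Pectin + PFOS and Pectin, all lower with PFOS, against 13.6% of all genes in that direction.

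The small-subunit platform protein Rps14 had 610.0, 827, 809 and 688 CPM in Pectin + PFOS, against 2224, 2087, 1782 and 1330 CPM in Pectin. Every exposed library lay below every unexposed one, and the level fell by 1.34 on the log2 scale (SE 0.28, edgeR adjusted p = 0.0059). Rpl34, a large-subunit protein encoded at chr3:130726831-130730398, had 170.5, 188, 194 and 180.4 CPM in Pectin + PFOS, against 568, 425, 342 and 347 CPM in Pectin. The exposed libraries were close together and below the unexposed ones, a fall of 1.20 (SE 0.29, edgeR adjusted p = 0.00965). Rpl22 (chr4:152325742-152334071), which mice need for T cell development but not for general translation, had 107, 109, 132 and 122 CPM in Pectin + PFOS, against 281, 245, 172 and 218 CPM in Pectin. The groups did not overlap, and Rpl22 fell by 0.96 (SE 0.25, edgeR adjusted p = 0.0137). These 3 genes kept their call in each of the 22 fits that left out 1 library and under each of 11 other settings. Of the next 5 members by p, Rpl5 lost its call in 1 omission and 2 settings (edgeR adjusted p up to 0.0814 over them), Rps27l in 1 setting, Rpl36a in 2 omissions and 1 setting, and Rps27a and Rps7 in 2 omissions each.

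Rpl5 and Rpl11, which carry ribosomal stress to Mdm2, were among the 23. Rpl5 (chr5:107900502-107909005) had 71.7, 91.4, 100 and 90.3 CPM in Pectin + PFOS, against 330.4, 240.5, 136 and 199.5 CPM in Pectin, with no overlap (log2 fold change -1.36, SE 0.35, edgeR adjusted p = 0.0128). Rpl11, its partner in that complex, had 249.5, 248, 267 and 256 CPM in Pectin + PFOS, against 408, 431, 318 and 394 CPM in Pectin. Its fall was smaller, 0.60 (SE 0.21, edgeR adjusted p = 0.0458). Rps7, which in human cells also binds the human Mdm2 protein, had 303, 378, 297 and 307 CPM in Pectin + PFOS, against 839, 732, 578 and 591 CPM in Pectin, again without overlap (log2 fold change -1.09, SE 0.31, edgeR adjusted p = 0.0195). Among 15 p53 target genes, 3 were higher in Pectin + PFOS (Ei24, Tnfrsf10b and Cdkn1a at 0.66) and 1 was lower (Phlda3 at -1.40), against 11.4% of all genes higher and 9.43% lower, and the list's median log2 fold change was 0.17.

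The steepest fall was that of Rpl39 (chrX:37082520-37085402), with 136, 189.5, 159 and 149 CPM in Pectin + PFOS, against 718, 441, 347 and 419 CPM in Pectin (log2 fold change -1.60, SE 0.47, edgeR adjusted p = 0.023). Rps27a, which encodes ubiquitin fused to a small-subunit protein, fell by 1.29 (SE 0.35, edgeR adjusted p = 0.0161), with 243, 254, 350.1 and 300.1 CPM in Pectin + PFOS and 953, 679.9, 460.1 and 715 CPM in Pectin. Rpl13a had 554, 699, 749.8 and 736 CPM in Pectin + PFOS and 1612, 1458, 1231 and 1137 CPM in Pectin, a log2 fold change of -0.99 (SE 0.28, edgeR adjusted p = 0.0201). In all 3 the exposed libraries stayed below the unexposed ones. The remaining called members had log2 fold changes between -1.26 (Rpl36a) and -0.75 (Rpl17), and only the called members Rpl38 and Rpl35a overlapped between the groups.

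Some members had a fold change near 0 between Pectin + PFOS and Pectin. Rps2, a small-subunit protein near the entry of the mRNA channel, had 778, 725, 929.7 and 749.7 CPM in Pectin + PFOS, against 511, 646, 657 and 1107 CPM in Pectin (log2 fold change 0.12, SE 0.27, edgeR adjusted p = 0.77). Rpl10, needed for the last steps of large-subunit maturation, had 655, 609, 597 and 566 CPM in Pectin + PFOS, against 634, 600.1, 599.6 and 636 CPM in Pectin, a log2 fold change of -0.03 (SE 0.16). Rplp0, the base of the ribosomal stalk, had 1090, 1057, 1053 and 915 CPM in Pectin + PFOS, against 929, 939.8, 1008 and 1538 CPM in Pectin, which overlap (log2 fold change -0.10, SE 0.27). Rpl28 and Rpl29 were at -0.0017 and -0.04. Others lay near the members' median without a call, such as Rpl3, a core protein of the peptidyl transferase centre, at -0.40, the S6 kinase substrate Rps6 at -0.35 and Rpsa, also known as a laminin receptor, at -0.43. A member without a call is not shown to be equal between the groups.

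**Figure D3:**
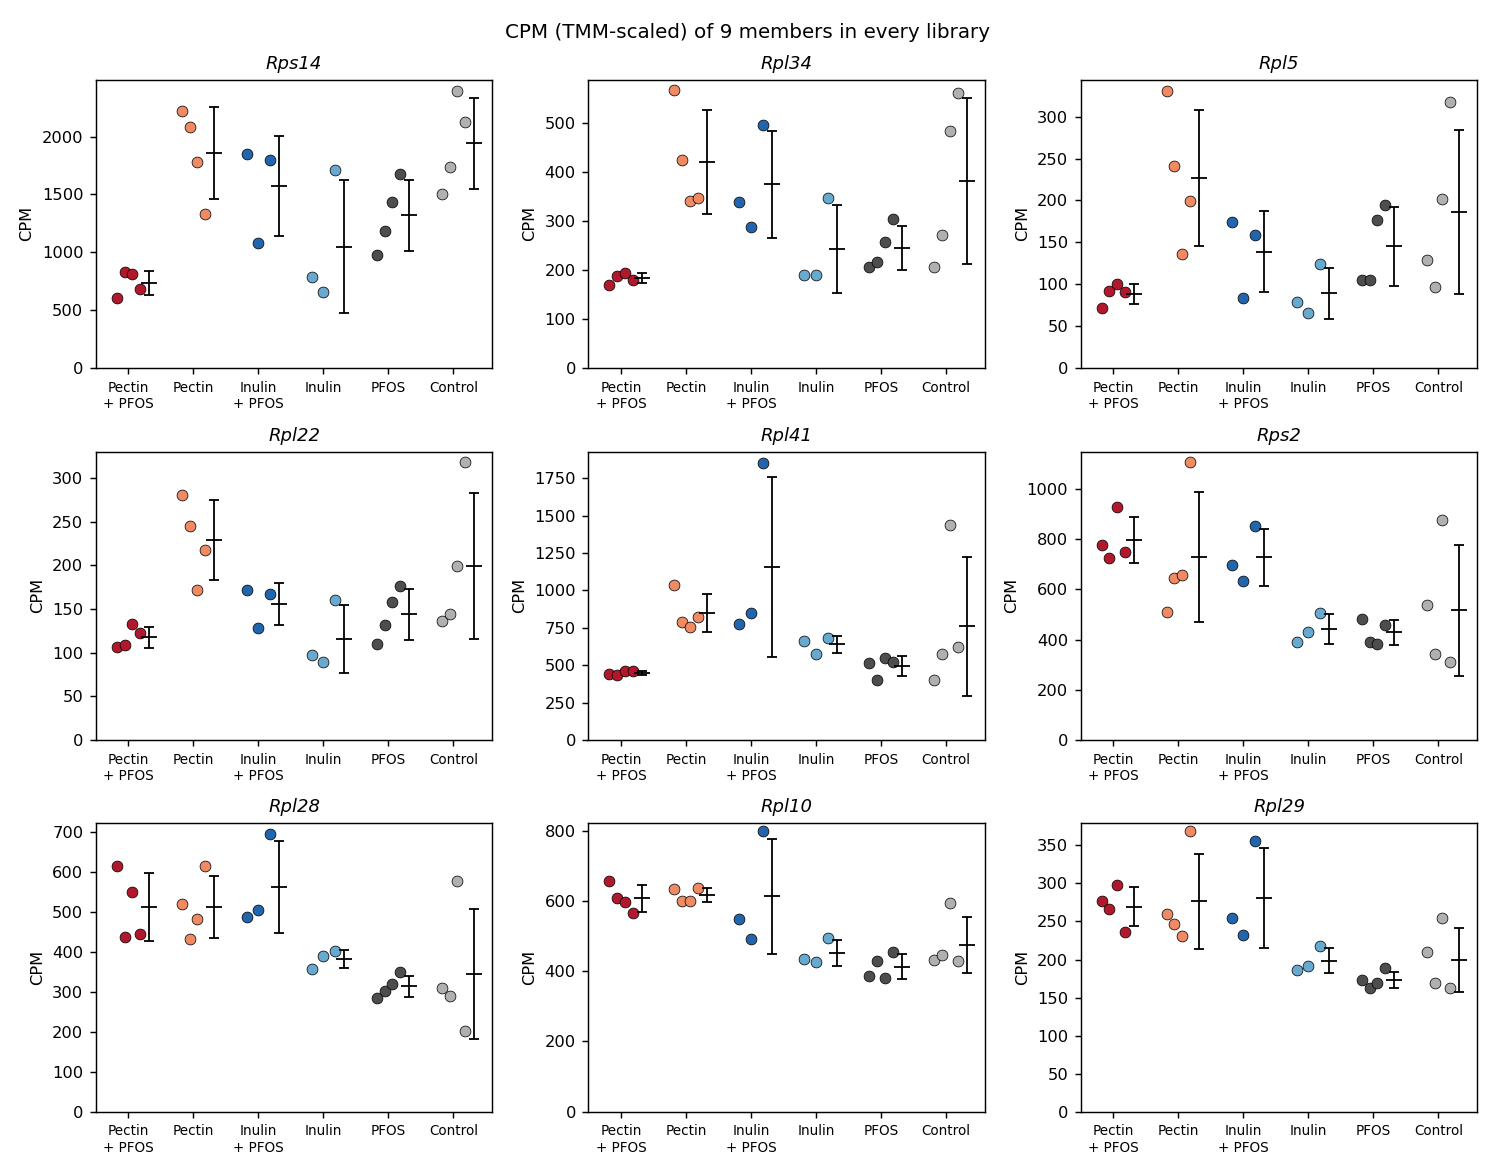
CPM of 9 members in every library, with points for libraries and bars for the mean ± SD of each group. Rps14, Rpl34, Rpl5, Rpl22 and Rpl41 have no overlap between Pectin + PFOS and Pectin (Rpl41 434 to 463 CPM against 757 to 1035 CPM), while the 2 groups overlap for Rps2, Rpl28, Rpl10 and Rpl29.

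The count of 23 rested in part on single libraries. It was 4 without Pectin replicate 1 and 11 without Pectin replicate 2. Leaving out a Pectin + PFOS library gave 5 without replicate 1, 13 without replicate 2 and 15 without replicate 4. Over all 22 omissions the median stayed between -0.57 and -0.39. On the log2(TPM + 1) scale 12 members were called, all lower, and 13 lower and 1 higher once the trend of counts with transcript length was taken out of each library. With that trend out, the median was -0.26 over the members and -0.06 over all genes. With library totals alone it was -0.67 over the members and -0.27 over all genes.

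Whether the PFOS difference itself depended on the fibre was compared between pectin and inulin, a comparison added after the data were seen. The PFOS effect on pectin lay below that on inulin for 41 called members and above it for none, 24 of the large and 17 of the small subunit. Over all genes 12.3% were called lower and 13.1% higher in that comparison. The median difference between the effects was -1.07 on the log2 scale over the members and -0.05 over all genes. The 2 effects share no library. Rps14 had the smallest p, with a log2 fold change for PFOS of -1.34 on pectin and 0.59 on inulin, a difference of -1.92 (SE 0.43, edgeR adjusted p = 0.00729). Rpl35, a protein beside the exit tunnel, was at -0.90 on pectin and 0.79 on inulin, a difference of -1.69 (SE 0.41, edgeR adjusted p = 0.00934). Rps3, which forms part of the mRNA entry channel, was at -0.77 and 0.57, a difference of -1.34 (SE 0.34, edgeR adjusted p = 0.012). The count of 41 was 8 without Inulin replicate 1, 21 without Inulin replicate 2, 12 without Inulin + PFOS replicate 3 and 27 without Pectin replicate 1. It was 19 with the length trend taken out and 14 on the log2(TPM + 1) scale, and the members' median was -0.56 in the first and -0.68 in the other.

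On inulin alone, no member was called between Inulin + PFOS and Inulin, where 0.0698% of all genes were called higher and 0.0888% lower. All 79 fold changes were above 0, against 49.4% of all genes, with a median of 0.56 against -0.01 over all genes. The members' median was 0.36 without Inulin + PFOS replicate 3, 0.80 without Inulin replicate 3 and 0.34 on the log2(TPM + 1) scale. At an unadjusted p under 0.05, 30 members were higher and 0 lower (38.0% of the members, against 9.26% of all genes higher), while DESeq2 called 0. Rps12, a small-subunit protein, had 492, 560.3 and 1113 CPM in Inulin + PFOS, against 339, 369.7 and 426 CPM in Inulin. The groups did not overlap, yet the difference did not pass (log2 fold change 0.93, SE 0.33, edgeR adjusted p = 0.157). Rpl3 had 560.5, 416 and 707 CPM in Inulin + PFOS, against 245, 254 and 457 CPM in Inulin, where Inulin replicate 3 overlaps the exposed ones (log2 fold change 0.82, SE 0.28, edgeR adjusted p = 0.153). Rpl17, beside the exit tunnel, was at 0.72 (SE 0.28, edgeR adjusted p = 0.183).

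On the cellulose diet, PFOS against Control gave no called member, and no gene of the 15763 was called in either direction (0% each). All 79 members had a fold change below 0, against 55.5% of all genes, with a median of -0.37. At an unadjusted p under 0.05, 0 members were higher and 12 lower (15.2%, against 3.55% of all genes lower), and DESeq2 called 0 members. The smallest p was that of Rps27, a zinc finger protein of the small subunit, with 212, 271, 324 and 379 CPM in PFOS, against 261, 277, 686 and 856 CPM in Control. Control replicates 3 and 4 were high, the other Control libraries lay within the PFOS range, and the edgeR adjusted p was 0.822 (log2 fold change -0.81, SE 0.34). Rps25 and Rpl9 were at -0.51 and -0.62, with the same adjusted p. Without Control replicate 3 the median over the members was -0.08, and on the log2(TPM + 1) scale it was -0.08.

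The interaction terms, which set the PFOS effect on a fibre against that on cellulose, called no member, and no gene at all (0%). For inulin the median was 0.96 over the members and 0.05 over all genes, 57 members passed an unadjusted p of 0.05 as higher and 0 as lower (72.2%, against 10.6% of all genes higher), and DESeq2 called 3, all higher. Rpl35 had the smallest p, with an interaction of 1.37 (SE 0.40, edgeR adjusted p = 0.111). Rpl3 was at 1.19 and Rpl41 at 1.47. For pectin the median was -0.15, 0 members passed an unadjusted p of 0.05 in either direction, DESeq2 called 0, and the largest terms by p were those of Rpl5 at -1.0, Rps14 at -0.78 and Rpl36a at -0.82. The PFOS effects on pectin and on cellulose were thus not shown to differ. Averaged over the 3 diets, PFOS called 0 members by edgeR and by DESeq2 (0.108% of all genes higher and 0.0508% lower), with 0 members higher and 6 lower at an unadjusted p under 0.05 (against 8.74% of all genes lower) and a median of -0.10. Rps14 at -0.44, Rps27 at -0.51 and Rpl39 at -0.70 had the smallest p in that average.

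**Figure D4:**
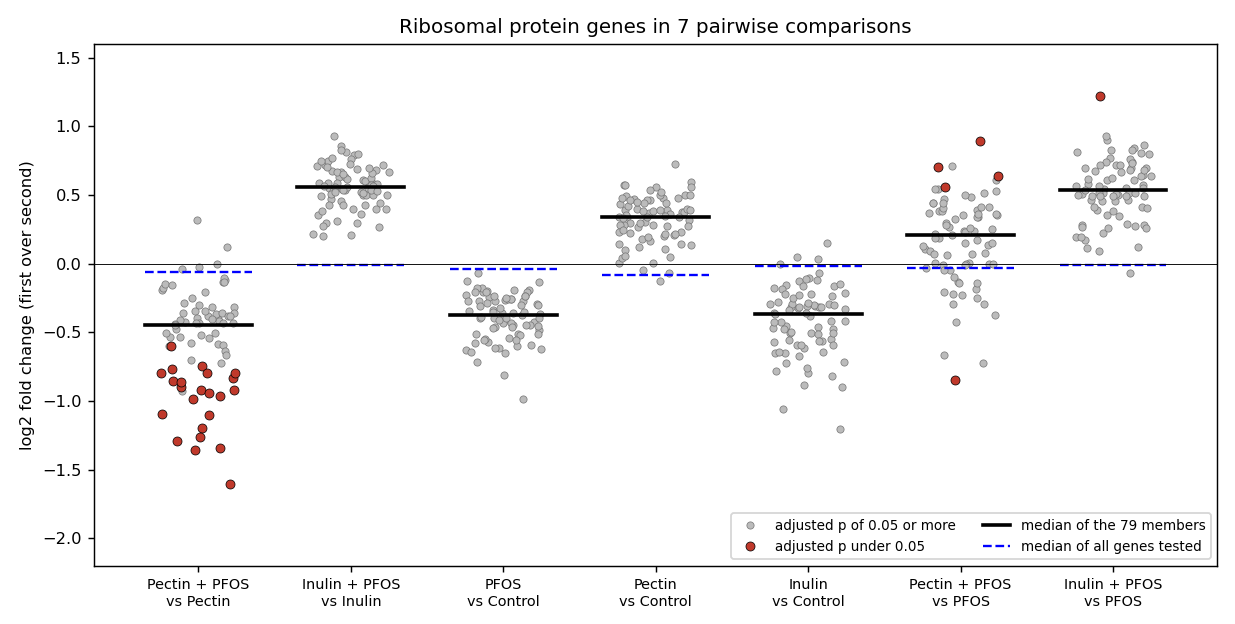
Log2 fold changes of the 79 members in 7 pairwise comparisons, 1 point a member, red where the edgeR adjusted p was under 0.05, with a black line at the members' median and a dashed blue line at the median of all genes tested. The members' medians are -0.44 for PFOS on pectin, 0.56 on inulin and -0.37 on cellulose, and 23 members are called in the first and 0 in the other 2.

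The fibres alone called no member. In Pectin against Control, 76 of 79 fold changes were above 0 (42.2% of all genes) with a median of 0.34 (all genes -0.08, of which 1.03% were called higher and 0.958% lower). At an unadjusted p under 0.05, 12 members were higher and 0 lower (against 8.12% of all genes higher), DESeq2 called 0, and the edgeR fit without Control replicate 3 called 3 higher. The members' median was 0.59 in that fit and 0.13 on the log2(TPM + 1) scale. Rpl36al had 167, 141, 90.1 and 175 CPM in Pectin, against 66.8, 59.2, 134 and 86.8 CPM in Control, which overlap (log2 fold change 0.73, SE 0.27, edgeR adjusted p = 0.156). Rpl29, whose loss slows the growth of mice, was at 0.47 and Rpl28 at 0.57. In Inulin against Control, 76 fold changes were below 0 (51.2% of all genes) with a median of -0.37, and no gene at all was called (0%). At an unadjusted p under 0.05, 0 members were higher and 13 lower (against 12.6% of all genes lower), and DESeq2 called 0 members. Rps14, with 784, 656 and 1711 CPM in Inulin, against 1506, 1740, 2395 and 2124 CPM in Control, was at -0.89 (SE 0.31, edgeR adjusted p = 0.128). Inulin replicate 3 lay inside the Control range and the other 2 far below it. Rpl22 was at -0.79 and Rpl11 at -0.65. Without Control replicate 3 the median was -0.07, and without Inulin replicate 3 it was -0.58 with 1 member called lower. Without Inulin replicate 2 it was -0.22.

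Between the PFOS-exposed diets, both fibres shared the PFOS group as their baseline. Rpl41, with its coding sequence of 78 bases, had 776, 847 and 1850 CPM in Inulin + PFOS, against 514, 398, 549.7 and 523 CPM in PFOS. The groups did not overlap, and it was the only member called (log2 fold change 1.22, SE 0.33, edgeR adjusted p = 0.04995), where 1.84% of all genes were called higher and 0.799% lower. The call was kept in 5 of the 22 omissions. A further 38 members did not overlap between these groups and were higher in Inulin + PFOS (39 in all, 49.4% of the members, against 12.4% of all genes), and the median was 0.54. The median was 0.33 without Inulin + PFOS replicate 3. With library totals alone it was 0.21 over the members and -0.33 over all genes, and on the log2(TPM + 1) scale it was 0 to 2 decimals and -0.36. Relative to all genes, the members' median was 0.55 with TMM scaling, 0.55 with library totals, 0.36 on the log2(TPM + 1) scale and 0.24 with the length trend taken out.

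In Pectin + PFOS against PFOS, 4 members rose and 1 fell, against 7.70% of all genes called higher and 8.33% lower. Rps2 had 778, 725, 929.7 and 749.7 CPM in Pectin + PFOS, against 483, 389, 382 and 460.0 CPM in PFOS, with no overlap (log2 fold change 0.89, SE 0.28, edgeR adjusted p = 0.0328). Rpl10 had 655, 609, 597 and 566 CPM in Pectin + PFOS, against 385, 430.1, 381 and 455 CPM in PFOS, also apart (log2 fold change 0.56, SE 0.16, edgeR adjusted p = 0.0264). Rpl28 was at 0.71 (SE 0.24, edgeR adjusted p = 0.0466) and Rpl29 at 0.64 (SE 0.18, edgeR adjusted p = 0.023). Rps14 went the other way, with 610.0, 827, 809 and 688 CPM in Pectin + PFOS, against 973, 1185, 1439 and 1680 CPM in PFOS (log2 fold change -0.85, SE 0.28, edgeR adjusted p = 0.0449). The split of 4 higher and 1 lower depended on the scaling: library totals alone gave 0 higher and 4 lower, with a median of -0.16 over the members and -0.41 over all genes, and the log2(TPM + 1) scale gave 0 higher and 6 lower. Relative to all genes the members' median was 0.24 with TMM scaling, 0.25 with library totals and 0.11 on the log2(TPM + 1) scale, above 0 in each. No member was called without PFOS replicate 3 or Pectin + PFOS replicate 1, 1 without PFOS replicate 2 or Pectin + PFOS replicate 3, 2 without Pectin + PFOS replicate 2, and 3 without PFOS replicate 1 or Pectin replicate 1 or 2.

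Members poor in G and C bases lay lower in Pectin + PFOS relative to Pectin than members rich in them. To show how far the coding sequences differ, the whole coding sequence of Rpl39 and Rpl41 and the first 60 bases of those of Rpl5 and Rps2 are given from GENCODE M21 on GRCm38, with G and C in capitals.
Rpl39: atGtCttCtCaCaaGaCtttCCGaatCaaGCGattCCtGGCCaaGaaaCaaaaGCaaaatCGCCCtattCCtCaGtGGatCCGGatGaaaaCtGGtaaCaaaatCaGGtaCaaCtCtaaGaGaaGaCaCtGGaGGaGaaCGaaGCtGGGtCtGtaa
Rpl41: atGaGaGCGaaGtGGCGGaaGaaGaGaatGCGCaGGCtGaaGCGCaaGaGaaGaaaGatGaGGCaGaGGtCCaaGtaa
Rpl5: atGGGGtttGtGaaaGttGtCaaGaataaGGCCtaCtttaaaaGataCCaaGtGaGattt
Rps2: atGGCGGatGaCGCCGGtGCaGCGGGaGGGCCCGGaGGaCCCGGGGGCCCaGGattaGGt
Over the whole coding sequence G and C made up 44.2% in Rpl39, the lowest of the members, 51.3% in Rpl41, 45.9% in Rpl5 and 58.2% in Rps2. All members but Rps4l, 78 in number, had an annotated coding sequence. Across these 78, coding GC content correlated with the log2 fold change at r = 0.522 (rho = 0.486), and across 14225 genes tested at r = 0.214. The 78 members shared the same 8 libraries and so their base composition effects. In the 26 members with the least G and C (44.2% to 50.3%), the median log2 fold change was -0.77 and 14 were called lower. The next 26 had a median of -0.46 and 6 calls, and the 26 with the most (54.4% to 61.3%) -0.37 and 3 calls. Rps14 at 56.4% and Rpl13a at 55.7% G and C were among those 3. With the GC trend of each library taken out over all genes, 22 members were called lower and the median was -0.55. Coding length correlated with the same fold changes at r = 0.380. The GC correlation was not particular to this comparison. Among the members r was 0.376 in Inulin against Control, 0.387 in Inulin + PFOS against PFOS and 0.453 in Pectin + PFOS against PFOS. It was weaker in PFOS against Control (0.21), Inulin + PFOS against Inulin (0.174) and Pectin against Control (-0.008). In Pectin + PFOS against Pectin, the start runs shown above stood in 6 of the 19 called members with a start window. They stood in 14 of the 39 members that were not called. Whether TOP motifs at the starts in use differ between these members was not tested.

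**Figure D5:**
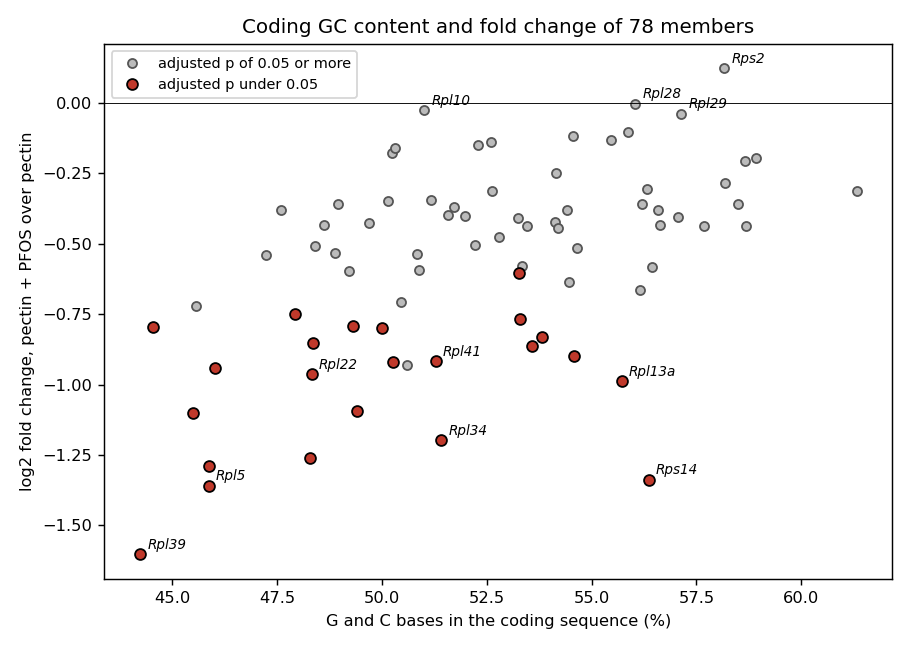
Log2 fold change of Pectin + PFOS over Pectin against the percentage of G and C bases in the coding sequence for 78 members, red where the edgeR adjusted p was under 0.05. Rpl39 stands at 44.2% and -1.60 and Rps2 at 58.2% and 0.12, and Rps14 lies low at 56.4%.

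Paralogs gave a second view of the family, per length in TPM. Rpl36al made up 43.9% to 47.7% of the TPM of Rpl36al and Rpl36a together in Pectin + PFOS, against 32.6% to 36.7% in Pectin, ranges that did not overlap. Rpl36a was called lower (log2 fold change -1.26, SE 0.35, edgeR adjusted p = 0.0175) and Rpl36al was at -0.60 (SE 0.27, edgeR adjusted p = 0.115). Rps27l, a paralog of Rps27 that p53 induces in human cells, had 81.1, 93.2, 96.2 and 76.7 CPM in Pectin + PFOS, against 229, 207, 209 and 101 CPM in Pectin, and fell by 1.10 (SE 0.29, edgeR adjusted p = 0.0143). Its share of the TPM of the pair was 11.6% to 14.4% in Pectin + PFOS and 9.12% to 21.4% in Pectin, which overlap. Rps4l stayed at 3.43% to 8.62% of the TPM it shares with Rps4x over the 22 libraries. Between such related genes the division of reads may be uncertain. Rps27l and Rps4l had whole counts in all 22 libraries, and Rpl36al had fractional ones in 14. Of their partners, Rps27 had fractional counts in 21 libraries and Rps4x and Rpl36a in 22 each.

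Genes that work with the ribosome were counted the same way in Pectin + PFOS against Pectin, where 9.43% of all genes fell and 11.4% rose. Of the 4 ribosomal protein genes and paralogs outside the naming rule, 1 fell, Rpl22l1, a paralog of Rpl22 (-1.72, edgeR adjusted p = 0.0135), and their median was -0.46. Of 77 mitochondrial ribosomal protein genes, 19 fell and 0 rose, with a median of -0.30 (for example Mrpl41 -1.13 and Mrps22 -0.84). Of 45 tested ribosome assembly genes, 6 fell and 0 rose, among them the nucleolar GTPase Gnl3 (-1.22) and Nip7 (-1.19), and the median was -0.38. Of 31 subunits and cofactors of RNA polymerases I and III, 3 fell and 0 rose, Polr3k (-1.12), Polr2k (-1.57) and Taf1d (-1.19), with a median of -0.18. Of 12 tested genes outside the ribosome that are known for TOP starts, 2 fell, Nap1l1 (-1.20) and Vim (-1.05), and 0 rose (median -0.34). Of 34 translation factors 2 rose and 3 fell (median -0.15), with Eif4h at 0.61 and Eif3m at -0.80. The polymerase and translation factor counts were near or below the shares of all genes, and the assembly and TOP-start counts were little above them. Of 24 regulators around mTORC1, Myc and LARP1, 4 rose and 0 fell (median 0.41), among them Rps6kb2, an S6 kinase (0.87), Eif4ebp2, a brake on cap-dependent initiation (1.05), and Tsc2, an mTORC1 inhibitor (0.68). Of 8 tested snoRNA host genes, 2 fell, Snhg6 (-1.20) and Snhg3 (-1.01), and 0 rose (median -0.64). The regulator and snoRNA host counts rest on 4 and 2 genes, and that of the regulators was little above the share of all genes.

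Some cell type markers differed in the same comparison, where 9.43% of all genes were called lower and 11.4% higher. Of 11 Paneth cell markers 6 were called lower and 0 higher (median -1.28), Itln1 at -1.85 and Lyz1 at -1.40 among them, and their summed level ran over 1855 to 5443 CPM in Pectin + PFOS and 5681 to 11030 CPM in Pectin. Of 12 fibroblast markers 6 were lower and 0 higher, and the sum ran over 177 to 388 CPM in Pectin + PFOS and 625 to 755 CPM in Pectin. Of 16 markers of proliferating crypt cells 2 were lower, Pcna (-0.63) and Tyms (-1.09), and 0 higher, and the sum was 112 to 201 CPM in Pectin + PFOS and 256 to 312 CPM in Pectin. Of 14 plasma and B cell markers 1 was lower and 0 higher, with sums of 629 to 2215 CPM in Pectin + PFOS and 2491 to 5107 CPM in Pectin. Of 11 tested myeloid markers 1 was lower, and of 12 smooth muscle, 12 enteric nerve and 12 T cell markers none was called (medians -0.99, -0.78 and 0.46). The counts of crypt, plasma and B cell and myeloid markers were near the share of all genes. The enteric nerve markers summed to 8.89 to 25.2 CPM in Pectin + PFOS and 33.1 to 56.8 CPM in Pectin. The sums of the Paneth, fibroblast, crypt, plasma and B cell and enteric nerve markers were lower in every Pectin + PFOS library than in any Pectin library. Of 12 enterocyte markers 4 were higher and 0 lower, with 53900 to 101200 CPM in Pectin + PFOS and 16250 to 68810 CPM in Pectin, and of 10 goblet cell markers 2 were higher and 0 lower, with 3 fold changes above 0 and a median of -0.24. Of the 37 mitochondrially encoded genes, 22 had no counts in any group and 15 were tested, of which 3 were lower and 0 higher (median -0.76). In the comparison of the PFOS effect between pectin and inulin, 9 of 11 Paneth, 9 of 12 fibroblast, 10 of 12 smooth muscle and 7 of 11 myeloid markers were lower and none of these higher, against 12.3% of all genes lower. The part of these cell types in the members' differences was not tested.

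The 10 genes outside the rule whose log2 CPM followed the summed member level most closely over the 22 libraries were led by Gm7536 (r = 0.96), Eif3i, a subunit of an initiation factor (r = 0.95), Gnb2l1, the small-subunit scaffold also called Rack1 (r = 0.95), Uqcr11 (r = 0.93) and Rps3a1 (r = 0.92). Mrpl13, Snrpg, Rbx1, Ndufb5 and Mrpl48 followed at r = 0.91 to 0.92. Apart from Gm7536, which had no annotated coding sequence, these genes had coding lengths of 171 to 978 bases. All points share library scaling and depth.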

How the data were processed

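The members and gene lists were chosen with earlier results of these data known. A single gene was left out of the lists and is not reported here. RNA of 22 libraries was sequenced from strand-specific libraries, per the labels' protocols. HISAT, Bowtie2 and GRCm39 appear in the submitters' processing notes without a role or version, and the counting program is not given in the sources used here. The authors deposited an expected count and a TPM value per gene and library. Gene coordinates of 51 of the 79 members were identical to GENCODE M21 on GRCm38 and 75 lay within 1000 bases, so coordinates are given on GRCm38. Library totals were 17613322 to 20261370 counts. No pair of libraries of the same group agreed within sampling noise (smallest chi-square per gene 27.8). Pairs from different groups were not compared in this way.

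Expected counts were rounded and tested with edgeR 4.0.16 (R 4.3.3) after TMM scaling and its low-count filter, in 1 robust quasi-likelihood model of 6 group means over 22 libraries (common dispersion 0.102). P-values were two-sided and Benjamini-Hochberg adjusted over 15763 genes. Alternatives used DESeq2 1.42.0, limma 3.58.1 on log2(TPM + 1) or log2(TPM + 0.1), other scalings, no filter and only the groups compared. Further fits took the bio rep number of the labels as a block, left out each library, and, added later, took out GC and length trends. The model was also run on simulated counts that were independent between genes. That run cannot tell how counts of called members behave when the members vary together. Coding sequences are of the principal transcript. Named members were, per comparison, up to 8 called in each direction by p, otherwise the 3 with the smallest p, together with fixed members and paralogs, the 5 highest and 5 lowest in TPM, up to 3 called genes per list and direction, and the 10 most correlated other genes. Rpl38 and Rpl35a were named after their values were seen.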

Additional observations from a re-analysis of the deposited data

Results flagged for a closer look

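In groups of 4 libraries, 152 sets of values were examined for a library far from the others, and 11 were marked. Chance marks about 1 in 20. In CPM Control replicate 3 was high for Rpl10 (594), Rpl9 (959), Rplp1 (969) and Rpsa (1354), and Control replicate 4 for Rpl39 (1218). PFOS replicate 4 was high for Rps25 (222), Rps3 (819) and Rps4l (35.7). Rplp0 was high in Pectin replicate 4 (1538), Rps4l low in Pectin replicate 3 (28.2), and Rps7 high in Pectin + PFOS replicate 2 (378). The mark of Rps4l in Pectin rests on a small difference, as the other Pectin values were 30.1, 30.3 and 30.4 CPM.

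The PFOS effect differed between pectin and inulin, by a contrast of both effects in the edgeR model that was added after the data were seen, for 8 named members. The difference in log2 fold change, pectin minus inulin, was -1.92 for Rps14, -1.83 for Rpl34, -1.69 for Rpl35, -1.47 for Rpl17, -1.67 for Rpl13a, -1.34 for Rps3, -1.38 for Rps23 and -1.99 for Rpl5.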

How the results depend on the processing

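In Pectin + PFOS against Pectin, where 23 members were called lower, the count was 12 on log2(TPM + 1), 14 on log2(TPM + 0.1), and 14 with the length trend taken out, of which 13 were lower and 1 higher. Leaving out a library gave 4 to 27. In Inulin + PFOS against PFOS, with 1 called, it was 9 by DESeq2, 13 with only the groups compared, 3 with the GC trend taken out, and 0 with library totals, on both TPM scales, with the length trend taken out and in the replicate block, and 0 to 6 over the omissions. In Pectin + PFOS against PFOS, with 4 higher and 1 lower, DESeq2 called 9 and the fit of only the groups compared 11, most of them higher, and 2 were called without the low-count filter. The calls turned with library totals (4, all lower), log2(TPM + 1) (6, all lower) and log2(TPM + 0.1) (7, all lower), scalings that lowered all genes (medians -0.41, -0.29 and -0.43), while relative to all genes the members' median stayed above 0 (0.25, 0.11 and 0.25, against 0.24). The omissions gave 0 to 7. The interaction of PFOS with inulin went from 0 to 3 with DESeq2 and 0 to 4 over the omissions. Pectin against Control ran over 0 to 3 and Inulin against Control over 0 to 1 in the omissions. For the PFOS effect on pectin against that on inulin (41 called), the counts were 14 and 16 on the TPM scales, 19 with the length trend taken out and 8 to 58 over the omissions. The cause of these shifts was not tested. Libraries with the same bio rep number showed little pairing: 6 of 25 such pairs correlated above 0.1 (from -0.26 to 0.30). Of the 25, 8 correlated best with their own number. The numbers in the library titles differ from these in part, and pairing or blocking by title number was not tested. With the replicate block 31 members were called lower in Pectin + PFOS against Pectin, 52 for the PFOS effect on pectin against that on inulin, and 0 in Inulin + PFOS against PFOS. With 3 or 4 libraries a group and this spread, differences may have been missed, and the smallest detectable difference was not estimated.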
